A study of Arabidopsis thaliana with 14 samples.

Results

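PDF1.4, PDF2.1 and LCR69 are 3 defensin-like genes of Arabidopsis thaliana, described here by their transcript levels in roots. They were chosen by name because their signals had been seen to rise at low boron, on average or in nip5;1 mutants. Their boron responses are therefore given as descriptions, without a test, and so are threshold counts that include them. They are 3 of 13 defensin-like genes with a probe set of their own in the annotation used, and 3 of the 22746 probe sets measured. PDF1.4 (AT1G19610, chromosome 1) was read by probe set 261135_at, PDF2.1 (AT2G02120, chromosome 2) by 266141_at and LCR69 (AT2G02100, also called PDF2.2, chromosome 2) by 266119_at.

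Plant defensins are small secreted peptides held in shape by several disulfide bonds, and many act against fungi. Some members of the family, such as PDF1.2, are induced by jasmonate and ethylene and serve as markers of that defence response, while others are made constitutively. Boron is taken up in the root by the boric acid channel NIP5;1 and passed on by the borate exporters BOR1 and BOR2, while NIP6;1 is a related channel of the shoot. Boron cross-links pectin in the cell wall.

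All plants were 12-day-old Col-0 background seedlings, kept for 10 days at 100 µM boron and then for 2 days at 0.3 µM (low) or 100 µM (sufficient) boric acid, and whole roots were profiled on the Affymetrix ATH1 array. The 14 arrays cover 7 genotypes at 2 boron levels, with 1 array for each combination. NIP5;1 was intact in 3 genotypes (wild type, the bor1 single mutant and the bor2 single mutant). It was mutated in the other 4, called channel mutants here, namely the nip5;1 single mutant and its doubles with bor1, bor2 and nip6;1. The labels name the alleles nip5;1-1, bor1-1 and bor2-1 and none for nip6;1, and describe poor root and shoot growth of the channel mutants when boron is short. The 4 mutated genes have no probe set named in the annotation used, so the genotypes were not checked by their transcripts. In whole roots, fewer cells of a type and less RNA per cell cannot be told apart.

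The arrays stood on a common scale, with medians from 194 to 204 signal units, and no pair held identical values. The bor2 array at 0.3 µM stood somewhat apart, with a median Spearman correlation of 0.975 to the rest, where the remaining 13 arrays ranged from 0.981 to 0.986. The root markers EXPA7 and EXPA18 and the shoot markers RCA and LHCB4.1, the only marker genes of the lists with a named probe set, were all above the floor. The summed signal of the shoot markers ran from 939 to 1932 in channel mutants at 0.3 µM and from 1160 to 2681 in intact genotypes at that level, where it was 1239 in wild type, 1160 in bor1 and 2681 in bor2. The high sum is that of the bor2 array that stood apart, and its part in the results was not tested. At 100 µM the sum ran from 1294 to 2283 in channel mutants and from 1350 to 1536 in intact genotypes. Among the channel mutants the double with nip6;1 had the highest sum at both levels, and the part of this in the results was not tested either. The floor is 20 signal units, the 20th percentile of all values, to which lower values were set before log2 was taken. Signals under 40 units are called near the floor.

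PDF1.4 was close to background at sufficient boron and clearly measured at low boron in the channel mutants. At 100 µM its signal was 28.2 in wild type, 25.4 in bor1 and 9.7 in bor2. Among the channel mutants it was 21.4 in the single mutant and 52, 27.7 and 35 in the doubles with bor1, bor2 and nip6;1. Thus 6 of 7 arrays at this level were near the floor, the bor2 array being below it, and their values have no reliable order. At 0.3 µM the signal was 35.1 in wild type, again near the floor, 81.1 in bor1 and 109 in bor2. The single channel mutant stood at 299, and its doubles with bor1, bor2 and nip6;1 at 270, 172 and 432. All 4 channel mutants lay above the 3 intact genotypes at low boron. All 7 genotypes were higher at 0.3 than at 100 µM, which was true of 3.77% of all tested probe sets. In wild type both values were near the floor, so its direction is uncertain, and the gene was chosen for rising at low boron.

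As a ratio of low to sufficient boron, with values under the floor set to it, PDF1.4 was 1.24-fold in wild type and 3.19-fold in bor1. In bor2 it was at least 5.46-fold, because the lower value was under the floor. The ratio was 13.97-fold in the single channel mutant and 5.19-fold, 6.20-fold and 12.4-fold in its doubles with bor1, bor2 and nip6;1. The log2 difference averaged 1.48 ± 1.08 (SD, n = 3) in intact genotypes and 3.11 ± 0.71 (SD, n = 4) in channel mutants. Wild type was the smallest of the 7, and the bor2 ratio lay within the range of the channel mutants, so the classes overlapped in the size of the response. Without bor2 the fitted difference in intact genotypes was 0.995.

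The PDF1.4 probe set passed the filter on dim probe sets, the upper 60% by mean signal, with a mean of 114 against a minimum of 113. Without the 4 channel mutant arrays at low boron its mean was 42.5, so it was among the tested probe sets only through the group in which it was high.

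PDF2.1 showed another pattern, with a well measured basal signal and a low-boron increase in the channel mutants. At 100 µM it was 249 in wild type, 161 in bor1 and 393 in bor2. It was 225 in the single channel mutant and 174, 165 and 146 in its doubles with bor1, bor2 and nip6;1. At 0.3 µM it was 246 in wild type, 163 in bor1 and 220 in bor2. It reached 446 in the single channel mutant, 762 in the double with bor1, 385 in that with bor2 and 388 in that with nip6;1. No value was near the floor, and at low boron the 4 channel mutants lay above all intact genotypes, whereas at sufficient boron the classes overlapped.

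The PDF2.1 ratio of low to sufficient boron was 0.988 in wild type and 1.01 in bor1. In bor2 the signal at low boron was 0.560 of that at sufficient boron, a response that ranked 13539th from the top of 13647 tested probe sets in that genotype. Its signal at 100 µM (393) was the highest of any genotype at that level. That at 0.3 µM (220), from the array with the high shoot marker sum, lay between bor1 and wild type. The ratio was 1.98-fold in the single channel mutant and 4.39-fold, 2.34-fold and 2.66-fold in its doubles with bor1, bor2 and nip6;1. The log2 difference averaged -0.28 ± 0.48 (SD, n = 3) in intact genotypes and 1.44 ± 0.50 (SD, n = 4) in channel mutants, with no overlap between the classes. Non-overlap in this direction held for 4.6% of all tested probe sets. Without bor2 the fitted intact difference was -0.00027, so the negative mean rested on that genotype.

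LCR69 was among the brightest transcripts of the root, and its changes were small in proportion. Its mean signal ranked 88th of 22746 probe sets. At 100 µM it was 10206 in wild type, 9470 in bor1, 11235 in bor2 and 8338 in the single channel mutant, with 9769, 10656 and 9576 in its doubles with bor1, bor2 and nip6;1. The classes were mixed at this level, with bor2 highest and the single channel mutant lowest. At 0.3 µM it was 10072 in wild type, 10984 in bor1, 13517 in bor2 and 14253 in the single channel mutant, with 16302, 15419 and 14839 in the same 3 doubles. Each channel mutant lay above each intact genotype at low boron, with bor2 nearest to them.

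The LCR69 ratio of low to sufficient boron was 0.987 in wild type, 1.16-fold in bor1 and 1.203-fold in bor2. In channel mutants it ran from 1.45-fold in the double with bor2 to 1.71-fold in the single mutant. The log2 difference averaged 0.15 ± 0.15 (SD, n = 3) in intact genotypes and 0.67 ± 0.11 (SD, n = 4) in channel mutants. The classes did not overlap, as in 4.6% of all tested probe sets, and without bor2 the fitted intact difference was 0.097.

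**Figure D1:**
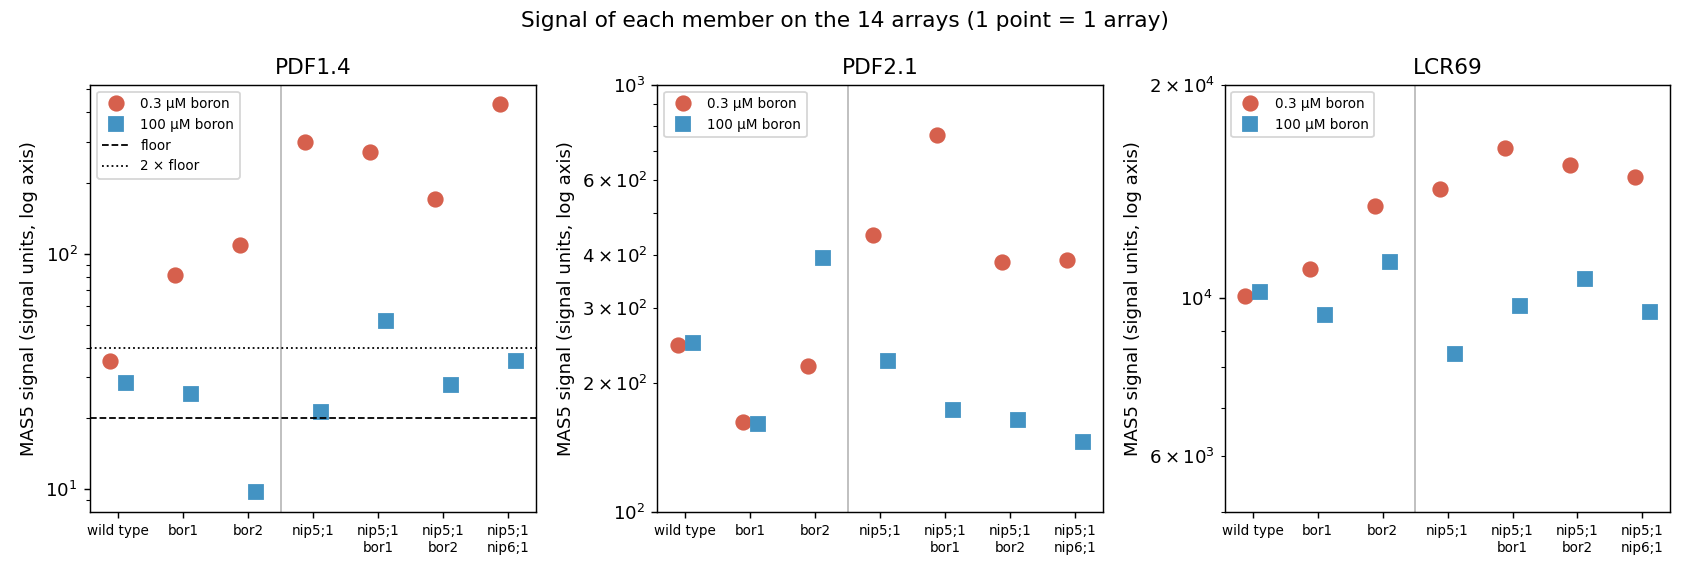
MAS5 signal (log axis, signal units) of PDF1.4, PDF2.1 and LCR69 on each of the 14 arrays, by genotype, with circles for 0.3 µM and squares for 100 µM boron and a vertical line between intact genotypes and channel mutants. In every panel the 4 channel mutant circles lie above the 3 intact circles, and most PDF1.4 squares lie under the dotted line at 40 units.

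Side by side, the 3 genes had in common that wild type had small differences (log2 differences of 0.32, -0.02 and -0.02 for PDF1.4, PDF2.1 and LCR69) and that all 4 channel mutants were higher at low boron. The latter was true of 13.9% of all tested probe sets. The genotype with the highest signal at low boron differed, being the double with nip6;1 for PDF1.4 and the double with bor1 for PDF2.1 and LCR69. At 0.3 µM the channel mutants exceeded the intact genotypes by a fitted log2 value of 2.04 (SE 0.40) for PDF1.4, 1.202 (SE 0.28) for PDF2.1 and 0.41 (SE 0.10) for LCR69. Channel mutants lay wholly above intact genotypes at this level in 6.42% of tested probe sets.

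Set against all tested probe sets, PDF1.4 ranked between 6th and 35th from the top in every genotype but wild type, where it ranked 1192nd. Its ranks rest on values at 100 µM that were near the floor in 6 of 7 genotypes, and that of bor2 (35th) on a value raised to the floor. PDF2.1 ranked 132nd in the single channel mutant and 21st, 83rd and 76th in its doubles with bor1, bor2 and nip6;1. LCR69 ranked from 209th to 796th in the channel mutants. In wild type PDF2.1 and LCR69 stood near the middle, with 48.5% and 48.3% of tested probe sets below them.

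**Figure D2:**
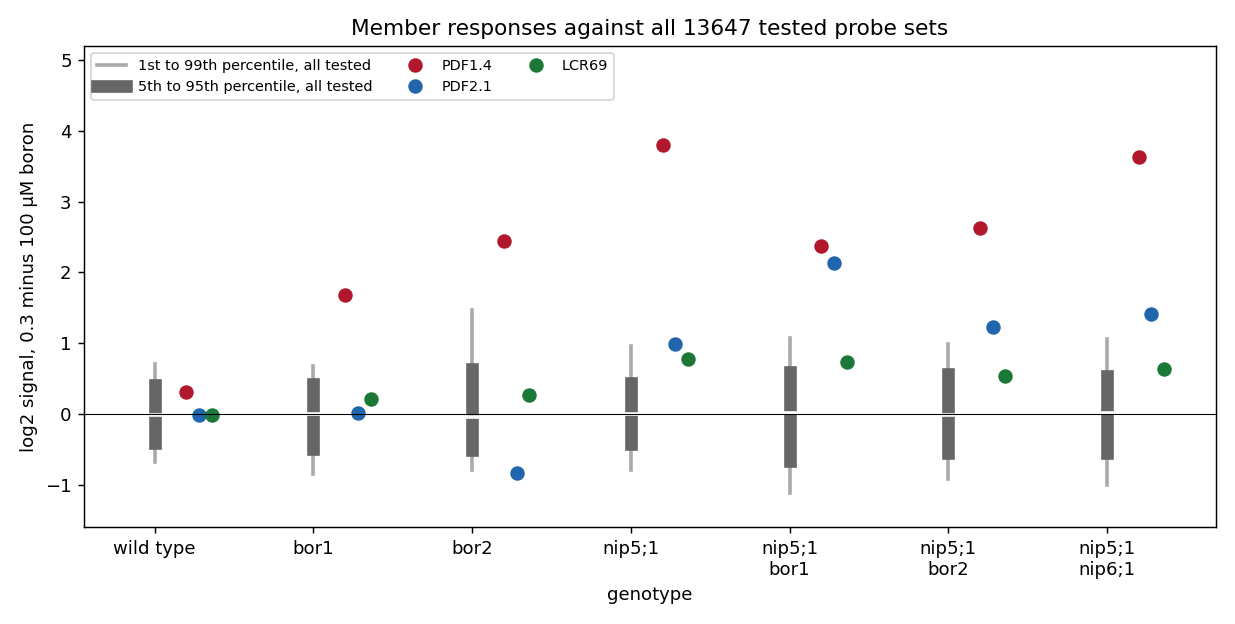
Log2 difference of signal between 0.3 and 100 µM boron for the 3 genes (coloured points) in each genotype, beside the 5th to 95th and 1st to 99th percentiles of all 13647 tested probe sets (thick and thin bars, white mark at the median). The PDF1.4 points rise far above the bars except in wild type, where it had a log2 difference of 0.32, and the PDF2.1 point of bor2 lies below them at -0.84.

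RNA integrity, read from GAPDH control probe sets as their 3′ signal over their 5′ signal, also moved with boron. This ratio was higher at 0.3 µM in 5 of 7 genotypes (1.68 ± 0.17 against 1.44 ± 0.20, SD, n = 7). It was lower at 0.3 than at 100 µM in wild type (1.60 against 1.77) and in the channel mutant double with bor1 (1.38 against 1.43). With this ratio as a covariate the fitted differences in channel mutants were 2.57 for PDF1.4, 1.68 for PDF2.1 and 0.65 for LCR69, against 3.11, 1.44 and 0.67 without it. The ratio also differed between the classes. In intact genotypes it averaged 1.77 at 0.3 µM and 1.56 at 100 µM, and in channel mutants 1.61 and 1.36. Further fits with this covariate are given with the alternatives below. Beyond these fits its part in the results was not tested.

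The rest of the family gives the setting for these values. Of 13 defensin-like genes with a probe set, 5 passed the filter on dim probe sets, the 3 genes above with LCR68 and PDF2.5. LCR68 (also PDF2.3) averaged 7146 ± 858 signal units at low and 7135 ± 601 at sufficient boron (SD, n = 7). Its log2 difference was -0.04 (SE 0.07, limma adjusted p = 0.798) in channel mutants and 0.05 (SE 0.08, adjusted p = 0.910) in intact genotypes, with a 95% interval of -0.19 to 0.10 in channel mutants. PDF2.5, a defensin linked to cadmium tolerance, had 2593 ± 219 and 2167 ± 280 (SD, n = 7). Its log2 difference of 0.32 (SE 0.09, limma adjusted p = 0.0791) in channel mutants and 0.19 (SE 0.11, adjusted p = 0.683) in intact genotypes did not pass, though it was higher at low boron in all 4 channel mutants.

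For the low-boron response of channel mutants 3 of the 5 tested family genes were higher past the threshold (limma, adjusted p under 0.05) and 0 were lower, where 2.85% of all tested probe sets were higher. The 3 are the genes chosen for that response, so the count is no independent evidence. The median of the 5, which is the value of LCR69 and likewise follows from the choice, was 0.67, against 0.0026 over all tested probe sets. In intact genotypes 0 of 5 passed in either direction, where 0.132% of all did, and the median was 0.15 against -0.01. For the difference between the responses of the classes 0 of 5 passed, where 0.11% of all did. Both counts include the 3 chosen genes, so they are a description and no test of those genes. That difference was 1.63 (SE 0.53) for PDF1.4, 1.72 (SE 0.29) for PDF2.1 and 0.52 (SE 0.11) for LCR69. For the comparison of the classes at 0.3 µM 1 of 5 passed, PDF1.4, where 0.711% of all tested probe sets were higher past the threshold. PDF1.4 was chosen for being high in that group and passed the filter only through it, so nothing is read from this call. It was lost when wild type, bor1, the single channel mutant or its double with bor1 or nip6;1 was left out, with a lower floor and with no filter on dim probe sets.

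**Figure D3:**
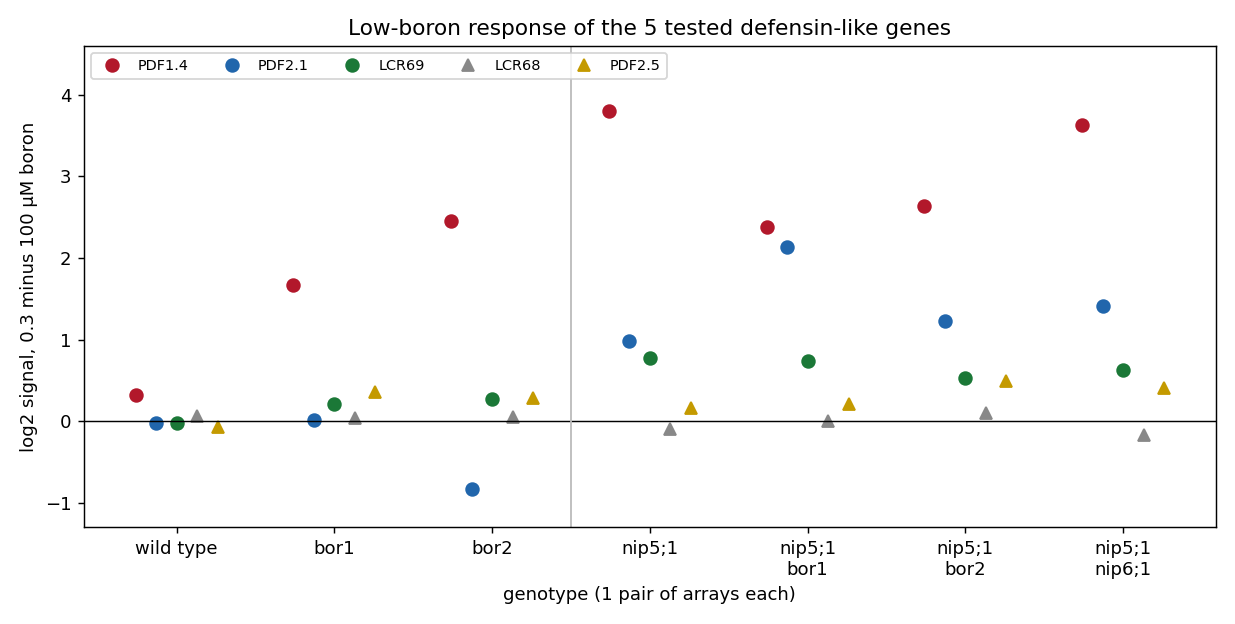
Log2 difference of signal between 0.3 and 100 µM boron for the 5 tested defensin-like genes in each genotype, with 1 pair of arrays behind each point and a vertical line between intact genotypes (left) and channel mutants (right). The grey triangles of LCR68 stay near 0 in all genotypes, while PDF1.4 reaches 3.80 in the single channel mutant and PDF2.1 reaches 2.14 in its double with bor1.

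The other 8 family genes were dim. PDF1.2, the usual marker of the jasmonate and ethylene defence response, ran from 26.2 to 60.5 at 0.3 µM and from 3.7 to 71.5 at 100 µM. PDF1.2b, whose probe set is of a design that can also bind related transcripts, ran from 5.4 to 37.5 and from 2.1 to 38.7. LCR67 (PDF1.1) did not exceed 3.5, LCR80 7.9 or LCR59 5.6 on any array. LCR66 (PDF2.4) reached 20.3, LCR24 25.1 and LCR72 (PDF2.6) 29.3. The 7 genes other than PDF1.2 were near the floor on all arrays, and no differences are given for them. PDF1.2 was near the floor on 8 of 14 arrays and below it on 1, and its log2 difference between low and sufficient boron was 0.24 ± 0.82 (SD, n = 3) in intact genotypes and -0.07 ± 0.31 (SD, n = 4) in channel mutants. Its sign was positive in 1 of 3 and in 2 of 4 genotypes, and it was not tested.

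PDF2.1 and LCR69 lie close together on chromosome 2. In the RefSeq gene order LCR69 is followed by AT2G02103, the pseudogene AT2G02110, PDF2.1, LCR68, a non-coding RNA gene, the transcribed pseudogene LCR71 and LCR72. Within this cluster LCR68, the gene next to PDF2.1, kept nearly the same signal at both boron levels, as given above. ETL1, a chromatin remodelling factor gene on the other side of LCR69, had a log2 difference of 0.13 (SE 0.13, limma adjusted p = 0.669) in channel mutants. The probe sequences were not used here, so the extent to which the sets of these related genes bind each other's transcripts was not tested. Next to PDF1.4 on chromosome 1, AT1G19600 fell by 0.39 (log2, SE 0.08, limma adjusted p = 0.0159) in the channel mutants, the opposite direction to PDF1.4, where 2.32% of all tested probe sets were lower. In intact genotypes it had a difference of -0.12 (SE 0.09, adjusted p = 0.775). AT1G19620 (14.6 to 59.0) and JMT, the enzyme that makes methyl jasmonate (0.7 to 17.4), were dim on all arrays.

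At sufficient boron the question was whether the channel mutants as a class, with boron in good supply, had another level of these genes. The classes do not differ by NIP5;1 alone. The double with nip6;1 has no intact counterpart, and this fit has no term for the second mutations. Of 13647 probe sets 0 passed the threshold (limma with genotype as a random block), with 384 at an unadjusted p under 0.05. The 100 µM arrays are also the baseline of the responses for which the 3 genes were chosen, so their values here are a description. PDF1.4 averaged 34.0 ± 13.2 signal units in channel mutants and 21.1 ± 9.97 in intact genotypes (SD, n = 4 and 3), mostly near the floor. PDF2.1 had a fitted log2 difference, channel mutants minus intact, of -0.52 (SE 0.28, 95% interval -1.11 to 0.07). It moved to -0.19 without bor2 and to -0.84 without bor1. LCR69 had a difference of -0.11 (SE 0.10, interval -0.32 to 0.11). LCR68 and PDF2.5, which were not chosen, had differences of -0.10 (SE 0.10) and -0.0039 (SE 0.12), each with limma adjusted p = 1.00.

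The effects of the second mutations were read against matched backgrounds, bor1 and bor2 each in 2 backgrounds and nip6;1 in the nip5;1 background only. For LCR69 the log2 differences with bor2 were 0.42 at 0.3 µM and 0.14 at 100 µM over wild type, and 0.11 and 0.35 over the single channel mutant. The value of 0.42 comes from the bor2 array that stood apart. The fitted effect was 0.26 (SE 0.07, 95% interval 0.10 to 0.42, limma unadjusted p = 0.0046), which failed the correction over all probe sets (adjusted p = 0.573, from 0.0566 to 1.00 over the alternatives). Without the bor2 single mutant the effect was 0.18. In this comparison 1 of 13647 probe sets passed (0.00733%), and 757 did without the channel mutant double with bor2. For PDF2.1 the bor2 effect was -0.04 (SE 0.27, adjusted p = 0.980), from pairs that ran from -0.45 to 0.66. For PDF1.4 it was 0.18 (SE 0.35), from pairs that ran from -0.80 to 1.64. The second mutation effects of PDF1.4 all include its values near the floor at 100 µM. They are a description, because the gene passed the filter only through the channel mutant arrays at 0.3 µM, which also enter these effects.

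The bor1 effect was 0.55 (SE 0.35) for PDF1.4, again a description. It was -0.21 (SE 0.27) for PDF2.1 and 0.11 (SE 0.07) for LCR69, both with limma adjusted p = 0.999. Its matched pairs disagreed in sign for each gene. For PDF2.1 at 0.3 µM the log2 difference was -0.60 in the wild-type background and 0.77 in the channel mutant background. The nip6;1 effect was 0.75 (SE 0.46) for PDF1.4, likewise a description. It was -0.45 (SE 0.34) for PDF2.1 and 0.10 (SE 0.10) for LCR69, both with limma adjusted p = 0.999. The nip6;1 effect rests on a single carrier genotype. The shoot marker sum of that carrier was 1932 at 0.3 µM and 2283 at 100 µM, against 1344 and 1536 in the single channel mutant. For bor1 and for nip6;1, 0 of 13647 probe sets passed in limma, with 360 (bor1) and 672 (nip6;1) at an unadjusted p under 0.05. The intervals were wide for PDF1.4, reaching 1.32 for bor1 and 1.74 for nip6;1, and narrow for LCR69, within -0.11 and 0.31 for both.

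**Figure D4:**
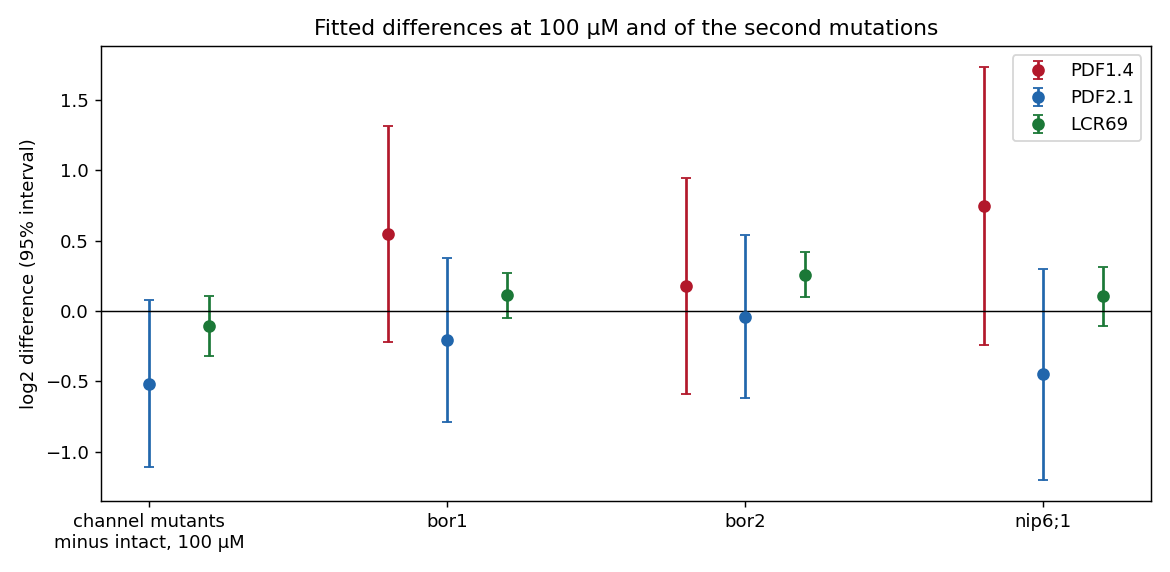
Fitted log2 difference with its 95% interval for PDF1.4, PDF2.1 and LCR69, as channel mutants minus intact genotypes at 100 µM (a description, without PDF1.4, which was near the floor) and as the effects of bor1, bor2 and nip6;1. Of the intervals drawn only that of LCR69 for bor2 (0.10 to 0.42) does not include 0, before any correction for the number of probe sets. The effects drawn for PDF1.4 are a description.

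Among the 7389 tested probe sets that name 1 gene, those with the most similar profiles were found by Pearson's r of log2 signal over the 14 arrays, a description whose points share boron level and genotype class. PDF1.4 was most like the class III peroxidase gene PRX52 (r = 0.957), AT1G54890 (0.954), AT1G33790 (0.951) and AT3G48440 (0.940). PDF2.1 was most like AT2G45340 (0.909), AT1G29270 (0.894), AT5G17760 (0.873) and POL (0.871), a protein phosphatase gene. LCR69 was most like AT4G29610 (0.920), AT5G49555 (0.919), AT5G22580 (0.917) and AT3G16330 (0.917). LCR69 and PDF1.4 resembled each other (r = 0.888, 20th among the candidates for LCR69) more than LCR69 and PDF2.1 (0.775, 132nd) or PDF1.4 and PDF2.1 (0.633, 413th among those for PDF1.4). The r values that involve PDF1.4 include its signals near the floor, on 6 of 7 arrays at 100 µM and in wild type at 0.3 µM, so their order is uncertain.

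The hormone pathways that act upstream of PDF1.2 could hardly be followed, since 3 of 31 genes of the jasmonate and ethylene list and 1 of 12 of the salicylate list had a named probe set. EIN3, the transcription factor of ethylene signalling, had a log2 difference of 0.21 (SE 0.08, limma adjusted p = 0.213) in channel mutants and 0.15 (SE 0.10, adjusted p = 0.721) in intact genotypes. THI2.1, a jasmonate-induced thionin, did not exceed 20.5, about the floor. SAG101, a lipase-like partner in salicylate-linked defence, had a difference of 0.59 (SE 0.18, limma adjusted p = 0.0866) in channel mutants and 0.23 (SE 0.20, adjusted p = 0.830) in intact genotypes. Neither of the 2 tested genes passed the threshold in either class.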

How the data were processed

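Root RNA was measured on 14 ATH1 arrays. The deposited table holds linear intensity values without detection calls. MAS5 is the tool that the submitters' processing notes name, with no version or settings. Each array had the same mean after trimming 2% at each end (500.04). After 64 control probe sets were left out, values under the 20th percentile were raised to it, and log2 followed. Raising values to this floor understates fold changes near it. Tests covered the 13647 probe sets in the upper 60% of mean signal. Names came from the platform annotation, updated through the RefSeq table of TAIR10.1 (13436 of 13513 probe sets that name 1 gene were found there; 503 name several and 8730 are not listed). Of 89 defensin-like genes by symbol or synonym, 13 had a probe set. PDF1A and PDF1B, which are peptide deformylases, were not counted.

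Tests used limma 3.58.1 and statmod in R 4.3.3, two-sided, with an intensity trend, and p-values were adjusted (Benjamini-Hochberg, threshold 0.05) over the 13647. Boron responses were fitted per class with genotype as a fixed block (5 residual degrees of freedom), classes at each level with a random genotype block (correlation 0.105), and second mutations additively (7 residual degrees of freedom), which treats the arrays of a genotype as independent. With 1 array per genotype and level, no p-value measures the spread between replicates of a genotype. In the boron fits p-values measure how far the response differs between genotypes of a class, together with array noise. In the other fits they measure the spread of arrays around the fitted means, between and within genotypes. The number of arrays limits the precision. On simulated data, 2-fold changes (log2 of 1) were recovered in 91% of cases for the class comparison at 100 µM, 93% for bor1, 90% for bor2 and 80% for nip6;1. The simulation gave all probe sets the same spread between genotypes, a set value not estimated from these data, and applied no floor. These comparisons are between genotypes, so the shares depend on that value and would be lower with a larger spread. These shares are averages over randomly drawn probe sets and give no rate for PDF1.4 or PDF2.1. Named genes were the 3 genes, the other measured family genes, named neighbours within 3 genes, list genes past the threshold or with the smallest p, and the 4 most similar profiles per gene. The 3 genes, the lists and the tests were chosen with earlier results of these data known. Alternatives were quantile normalization, a lower floor (2 units), no filter, no intensity trend, the GAPDH ratio as a covariate, a random genotype block in the additive fit and leaving out each genotype. Python 3.11.15 was used for the remaining steps.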

Additional observations from a re-analysis of the deposited data

How the results depend on the processing

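The fitted differences of PDF1.4, PDF2.1 and LCR69 that served to choose them kept their direction under all 12 alternatives, running in channel mutants from 2.57 to 3.35, from 1.21 to 1.68 and from 0.63 to 0.71. This follows in part from their choice, and with no filter PDF2.1 was no longer past the threshold in channel mutants. At 100 µM and for the second mutations, fitted differences of family genes changed sign 11 times over the alternatives. With a genotype left out, the bor1 effect ran from -0.76 to 0.34 for PDF2.1 (positive without bor1) and from -0.0034 to 0.22 for LCR69. The bor2 effect ran from -0.22 to 0.58 for PDF1.4 (negative without wild type or bor2) and from -0.54 to 0.45 for PDF2.1 (positive without wild type or the double with bor2), and with the lower floor it was -0.082 for PDF1.4. PDF2.5 at 100 µM ran from -0.075 to 0.098, and was 0.10 with the GAPDH covariate. The boron difference of LCR68 in channel mutants ran from -0.088 to 0.0013, and the class difference of PDF2.5 from -8.3e-05 to 0.22. The count of family genes higher in channel mutants at 0.3 µM (1) was 2 with quantile normalization and 0 with the lower floor or with no filter, and 0 to 3 with a genotype left out. Counts over all probe sets moved more. With no filter they were 183 for the response of channel mutants (706 in the fit reported), 5 for that of intact genotypes (18), 0 for the difference of the responses (15), 65 for the classes at 0.3 µM (135), 2 at 100 µM (0), 1 for bor1 (0) and 6 for nip6;1 (0). With the GAPDH covariate they were 228 for channel mutants, 10 for intact genotypes and 64 for the classes at 0.3 µM. With a genotype left out they ran from 273 to 946 and from 9 to 18 for the responses, from 2 to 46 for their difference, from 26 to 246 at 0.3 µM, and from 0 to 1 for bor1, 1 to 757 for bor2 (757 without the double with bor2) and 0 to 2 for nip6;1. The cause was not tested. The boron fits pair the arrays of each genotype. By replicate number, no paired analysis was possible because every array carries number 1. PDF1.4 at 100 µM is limited by signal near the floor.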

Other observations

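Other small secreted peptides and defence proteins, in lists drawn up after the annotation was seen, gave the following values. Of 10 RALF-like genes, which encode cysteine-containing peptide signals of growth, 6 were tested, and 0 rose or fell past the threshold in channel mutants (limma, median -0.14 against 0.0026 over all tested probe sets, of which 2.85% were higher and 2.32% lower). RALFL27 had a log2 difference of -0.50 (SE 0.15, adjusted p = 0.0828) and RALFL32 of -0.25 (SE 0.08, adjusted p = 0.112) in that class. Of 6 other defence genes 3 were tested. PR-1-LIKE had a log2 difference of -1.08 (SE 0.23, limma adjusted p = 0.0227) in channel mutants. It was -1.54 in the single mutant and -1.58, -0.07 and -1.14 in the doubles with bor1, bor2 and nip6;1. In intact genotypes its log2 value was -0.41 (SE 0.27, adjusted p = 0.735), from 0.17 in wild type, -0.64 in bor1 and -0.76 in bor2. The difference between the class responses, -0.67 (SE 0.35, limma adjusted p = 0.740), did not pass. The osmotin gene OSM34 was at 0.43 (log2, SE 0.18, adjusted p = 0.224) and the chitinase gene CHI of -0.12 (SE 0.39, adjusted p = 0.908) in channel mutants. The thionin genes THI2.1 and THI2.2 did not exceed 20.5 and 24.9 signal units on any array.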
